A study of Homo sapiens with 12 samples.

Results

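Immediate early genes were the 10 genes FOS, FOSB, JUN, JUND, EGR1, IER2, ATF3, DUSP1, KLF6 and ZFP36, taken by their symbols in the array annotation. They had 12 probes among the 47322 on the array, 3 for ATF3 and 1 for each other gene, and all 10 were among the 11280 genes tested. All samples derive from the human embryonic stem cell line H9. Their RNA was hybridised to HT-12 bead arrays, 3 for each of 4 groups, which the labels number as biological replicates. LSB held neuroepithelial cells at day 11 of differentiation and was the only unsorted group. NPC-NC was induced without feeder cells and collected at day 18, and MS5-NC was induced on feeder cells of the mouse stromal line MS5 and collected at day 35. Both are labelled as sorted for HNK1, a carbohydrate epitope, together with p75, the receptor encoded by NGFR. The sox10-NC cells carried a sox10::GFP reporter in H9, were induced with Wnt, and were sorted for GFP at day 11. All 3 sorted groups are labelled neural crest cells. Nothing in the labels says whether the replicates came from separate inductions or clones, so p-values measure the spread between these samples.

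Immediate early genes are transcribed within minutes of a stimulus, from factors already present in the cell, and their transcripts are short-lived. Growth factors, stress, depolarisation and the handling of tissue are known to switch them on, through MAP kinases that act on serum response factor at CArG boxes and through CREB at cAMP response elements. Many of their products are transcription factors, and others, such as DUSP1 and ZFP36, shut the response down again.

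The labels were first set against defining markers. SOX10, TFAP2B and FOXD3, transcription factors of the neural crest, were detected on all 3 sox10-NC arrays and on none of the 9 other arrays, so NPC-NC and MS5-NC lacked them. NGFR, the gene of the p75 sort target, was detected on 0 of 3 MS5-NC arrays, on 2 of 3 NPC-NC arrays and on 1 of 3 LSB arrays, at mean log2 levels of 4.65, 5.33 and 4.87, and on all 3 sox10-NC arrays at 6.78. The NGFR transcript thus does not bear out the labelled sort in MS5-NC, and in NPC-NC its levels overlapped those of LSB. The sort was for the p75 protein, which these arrays do not measure. Of 8 neural crest markers, all 8 were detected on every array in sox10-NC, 1 in NPC-NC and 0 in MS5-NC. The 7 neuronal markers had a summed log2 level of 51.2 to 53.1 on the LSB arrays, 69.1 to 72.2 in NPC-NC, 72.9 to 76.7 in MS5-NC and 55.4 to 66.8 in sox10-NC. The 6 neuroepithelial markers summed to 55.6 to 57.5 in LSB, 54.0 to 55.1 in NPC-NC, 54.2 to 56.5 in MS5-NC and 29.8 to 31.4 in sox10-NC, where 4 were detected on no array. Members of that list went both ways in NPC-NC and MS5-NC, with LHX2 higher (1.32 and 1.36 on the log2 scale against LSB) and RAX lower (-2.79 and -2.45). The 4 pluripotency markers summed to 39.0 to 39.6, 30.0 to 30.8, 25.0 to 33.4 and 38.0 to 38.9 in LSB, NPC-NC, MS5-NC and sox10-NC, and 7 mesenchymal markers to 53.4 to 54.1, 56.9 to 60.6, 57.7 to 60.1 and 54.4 to 58.0. The mesenchymal list also went both ways, with COL1A1 higher (2.64, 2.70 and 3.12 in NPC-NC, MS5-NC and sox10-NC) and TAGLN lower (-1.84, -2.51 and -2.69). Every array detected 30.9% to 36.1% of its probes.

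The promoter windows of FOS, EGR1, DUSP1 and IER2 are shown because these genes span the behaviours described below: FOS and EGR1 had the largest rises, DUSP1 rose less, and IER2 did not pass the test in any comparison. Sequences are from RefSeq, build GRCh38.p14, from 250 bases before to 50 bases after the transcription start, 5′ to 3′ on the strand of the gene. FOS lies on chr14:75278578-75278877 (plus strand), EGR1 on chr5:138465229-138465528 (plus), DUSP1 on chr5:172771146-172771445 (minus) and IER2 on chr19:13150161-13150460 (plus). Capitals mark CArG boxes and the half-site TGACG of the cAMP response element, on either strand.
FOS: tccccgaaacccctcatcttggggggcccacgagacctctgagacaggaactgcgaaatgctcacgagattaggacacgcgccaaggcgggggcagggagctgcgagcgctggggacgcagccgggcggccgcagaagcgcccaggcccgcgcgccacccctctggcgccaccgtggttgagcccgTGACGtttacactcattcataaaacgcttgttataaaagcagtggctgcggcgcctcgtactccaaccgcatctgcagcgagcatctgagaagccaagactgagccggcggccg
EGR1: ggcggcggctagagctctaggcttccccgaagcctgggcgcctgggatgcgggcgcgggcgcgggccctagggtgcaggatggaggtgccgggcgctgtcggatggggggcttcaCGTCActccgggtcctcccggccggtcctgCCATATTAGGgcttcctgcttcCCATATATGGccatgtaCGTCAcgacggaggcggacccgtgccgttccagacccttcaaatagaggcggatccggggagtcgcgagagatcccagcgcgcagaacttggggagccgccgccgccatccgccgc
DUSP1: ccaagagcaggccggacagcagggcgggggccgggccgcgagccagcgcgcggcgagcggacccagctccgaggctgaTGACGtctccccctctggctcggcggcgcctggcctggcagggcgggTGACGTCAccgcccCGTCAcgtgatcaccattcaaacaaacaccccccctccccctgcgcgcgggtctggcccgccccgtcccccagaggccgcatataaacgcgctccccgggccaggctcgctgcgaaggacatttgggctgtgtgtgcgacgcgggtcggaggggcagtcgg
IER2: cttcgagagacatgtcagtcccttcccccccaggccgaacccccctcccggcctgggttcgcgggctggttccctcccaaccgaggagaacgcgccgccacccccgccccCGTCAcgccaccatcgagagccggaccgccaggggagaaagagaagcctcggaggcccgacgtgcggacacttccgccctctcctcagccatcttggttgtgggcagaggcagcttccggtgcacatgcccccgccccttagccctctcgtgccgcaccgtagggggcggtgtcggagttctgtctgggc

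All 10 genes had a window in the table, and ATF3 had 2. A CArG box was found in the EGR1 window, where 2 lie close together, and in no other member's, against 1.29% of the 35116 windows. The half-site TGACG was present for 7 members, FOS, FOSB, JUN, JUND, EGR1, IER2 and DUSP1, against 24.6% of windows. The letters TATAA were present for 6 members, against 20.4% of windows, and the AP-1 motif TGANTCA for 0, against 7.71%. Only this form of the AP-1 motif was searched, so longer forms such as TGACATCA, which the JUN window holds, were not counted. The EGR motif GCGNGGGCG was present for EGR1 and KLF6, against 9.43% of windows. Both strands were searched for each motif, and these matches describe letters in a short window, not bound sites. Sequence more than 250 bases before the start was not searched. A window without a CArG box, such as that of FOS, therefore does not show that the gene lacks one.

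Levels are given as log2 of the background-corrected, quantile-normalised probe signal. A probe was detected where its detection p-value was under 0.01. Differences are log2 changes ± SE from one limma fit of all 12 arrays (n = 3 per group), with p-values adjusted by Benjamini-Hochberg over all genes tested. A gene was called at an adjusted p under 0.05 and a change of at least 2-fold, when at least 2 arrays of the higher group detected it. The 3 comparisons with LSB share its 3 arrays. Levels of different genes come from different probes and are not compared.

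In each sorted group 6 of the 10 genes were higher than in LSB and 0 were lower. Among all genes tested, 10.2% were called higher in NPC-NC, 13.0% in MS5-NC and 9.77% in sox10-NC, and 4.84%, 7.85% and 8.64% were called lower. The genes FOS, JUN, EGR1, DUSP1 and KLF6 were called in all 3 sorted groups, as were 3.77% of all genes tested. JUND was the remaining called gene in NPC-NC and MS5-NC, and ZFP36 in sox10-NC. The median log2 change of the 10 genes was 1.42 in NPC-NC, 1.55 in MS5-NC and 1.29 in sox10-NC, against 0.01, 0.00 and -0.02 over all genes tested. For FOS, JUN, EGR1, DUSP1, KLF6 and ZFP36, all 9 sorted arrays lay above all 3 LSB arrays, which held for 10.6% of all genes tested. For ZFP36 the margin was narrow and near background, at 5.36 for the lowest sorted array against 5.29 for the highest LSB array. The 10 genes were chosen with earlier results of these data known. Their counts and medians therefore do not test immediate early genes as a class.

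**Figure D1:**
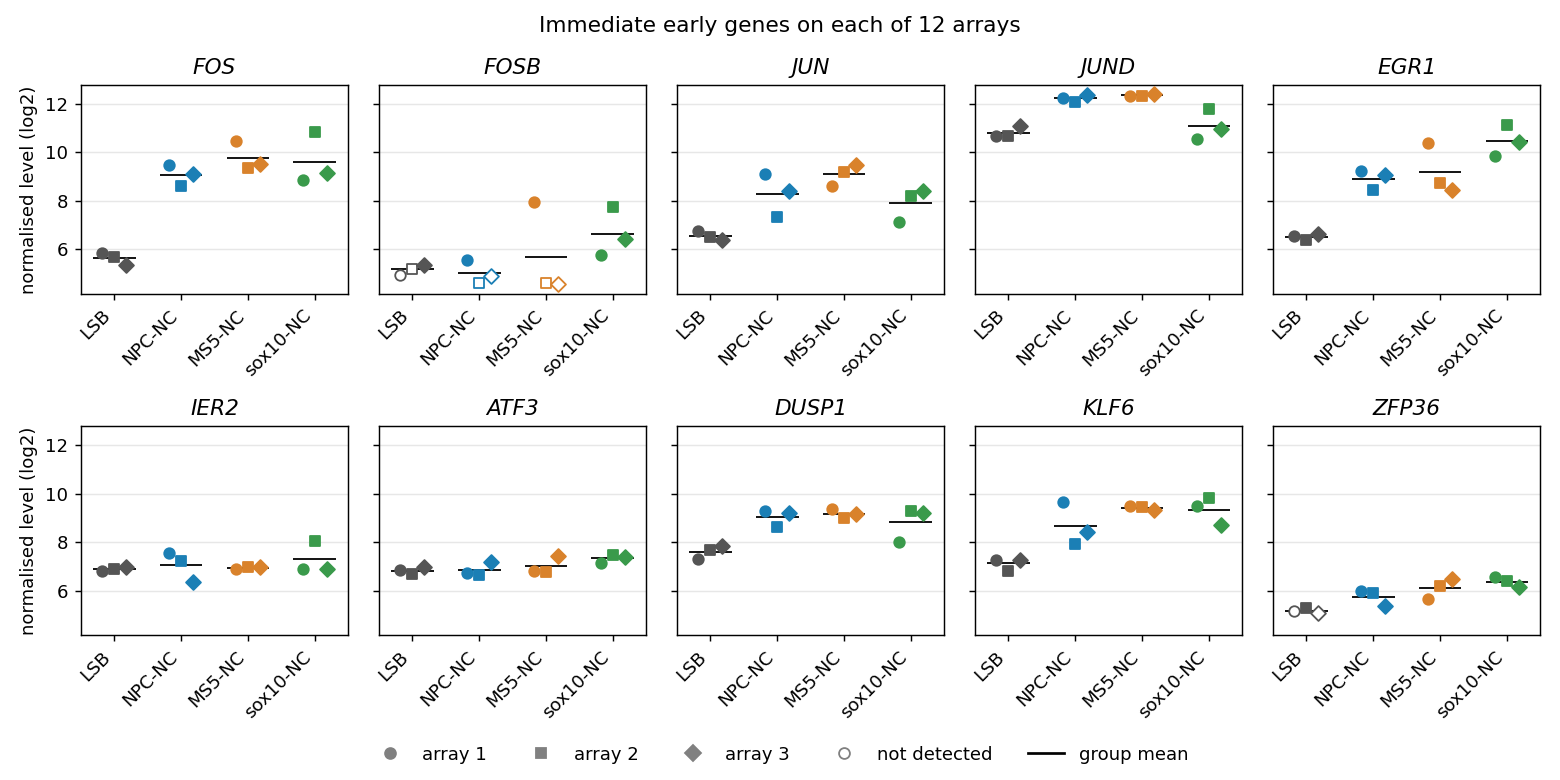
Normalised log2 level (vertical axis) of each of the 10 genes on every array, by group, with array number shown by symbol, open symbols for arrays that did not detect the probe and a line at the group mean. For FOS all 9 sorted arrays lie at 8.60 or above and all 3 LSB arrays at 5.85 or below, whereas every sorted group overlaps LSB for IER2, and NPC-NC and MS5-NC overlap it for ATF3.

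The group differences cannot be assigned to one feature of the design. Sorting, induction and days in culture differed together between LSB and both NPC-NC and MS5-NC, and their parts cannot be told apart. The sox10-NC and LSB groups were both collected at day 11, and there induction, the reporter line and sorting differed together. Markers of other cell types moved with these comparisons. Neuronal markers were called higher for 7 of 7 in NPC-NC and in MS5-NC and 6 of 7 in sox10-NC. Neural crest markers were called higher for 8 of 8 in sox10-NC and 0 in NPC-NC and MS5-NC. Neuroepithelial markers were lower for 6 of 6 in sox10-NC, and 1 was higher and 1 lower in each other group. Pluripotency markers were lower for 3 of 4 in NPC-NC and MS5-NC and 1 in sox10-NC. Of the 7 mesenchymal markers, 4 were higher and 2 lower in NPC-NC and in MS5-NC, and 2 higher and 2 lower in sox10-NC. The part of these markers in the changes of the 10 genes was not tested. In bulk RNA, fewer cells with a transcript and less transcript per cell cannot be told apart.

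FOS encodes a subunit of AP-1, the dimeric transcription factor that immediate early genes are best known for, and it binds DNA only together with a JUN protein. On the LSB arrays its log2 level was 5.85, 5.69 and 5.35, detected on all 3 but near their detection limits of 5.28, 5.26 and 5.10. It was 9.47, 8.60 and 9.12 in NPC-NC, 10.46, 9.35 and 9.51 in MS5-NC, and 8.87, 10.83 and 9.16 in sox10-NC. The lowest sorted array, NPC-NC array 2, thus stood well above the highest LSB array, and sox10-NC array 2 was the highest of all. FOS was 10.8-fold higher than LSB in NPC-NC (3.43 ± 0.41, adjusted p = 8.72e-06 by limma), 17.7-fold in MS5-NC (4.14 ± 0.41, adjusted p = 7.53e-07) and 15.9-fold in sox10-NC (3.99 ± 0.41, adjusted p = 6.31e-07). Without background correction these folds were 4.74, 7.36 and 6.75, and raising the offset from 16 to 50 gave 6.80, 10.9 and 9.87. Without sox10-NC array 2 the fold in sox10-NC was 10.4.

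FOSB, a close relative of FOS that also pairs with JUN proteins, behaved differently from array to array. It was detected on 1 of 3 arrays in LSB, in NPC-NC and in MS5-NC, and on all 3 in sox10-NC. The log2 levels were 4.95, 5.21 and 5.37 in LSB, and 5.55, 4.61 and 4.91 in NPC-NC. MS5-NC array 1 had 7.95, while MS5-NC arrays 2 and 3 had 4.62 and 4.56 and did not detect it. In sox10-NC it had 5.77, 7.76 and 6.43, each above every LSB array. No comparison of FOSB passed the test, and its change in sox10-NC was 1.48 ± 0.64 (adjusted p = 0.0844 by limma). The change in MS5-NC was 0.53 ± 0.64, and without MS5-NC array 1 it turned to -0.58. FOSB was called in sox10-NC with median scaling (1.62), with only the 2 groups compared (1.48) and without sox10-NC array 1 (1.93). Leaving out MS5-NC array 1 also gave calls for FOSB in sox10-NC against LSB (1.48) and against NPC-NC and MS5-NC, at -1.62 for NPC-NC minus sox10-NC and -2.05 for MS5-NC minus sox10-NC. The NPC-NC difference was also called without sox10-NC array 1 (-2.09), with array weights (-1.67) and with only the 2 groups compared (-1.63).

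JUN encodes the partner that gives AP-1 most of its DNA binding, and it can also pair with itself. Its log2 level was 6.78, 6.50 and 6.40 in LSB, 9.13, 7.35 and 8.41 in NPC-NC, 8.63, 9.18 and 9.47 in MS5-NC, and 7.12, 8.21 and 8.43 in sox10-NC. All sorted arrays were above all LSB arrays, the nearest being sox10-NC array 1. The rise was 5.78-fold in MS5-NC (2.53 ± 0.39, adjusted p = 7.13e-05 by limma), 3.33-fold in NPC-NC (1.73 ± 0.39, adjusted p = 0.00271) and 2.56-fold in sox10-NC (1.36 ± 0.39, adjusted p = 0.0113). Without background correction the MS5-NC fold was 3.58. The sox10-NC call ended without sox10-NC array 3 (1.10), without background correction (0.91) and without the detection filter (1.36).

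JUND, the JUN relative that cells hold in the absence of a stimulus, was higher in NPC-NC and MS5-NC and overlapped LSB in sox10-NC. It had 10.67, 10.70 and 11.07 in LSB, and 12.26, 12.06 and 12.37 in NPC-NC. The MS5-NC arrays lay within a narrow range, at 12.34, 12.31 and 12.39, while sox10-NC had 10.53, 11.79 and 10.98. JUND rose 2.67-fold in NPC-NC (1.42 ± 0.27, adjusted p = 8.20e-04 by limma) and 2.90-fold in MS5-NC (1.53 ± 0.27, adjusted p = 2.74e-04). In sox10-NC the change was 0.29 ± 0.27, with a 95% interval of -0.28 to 0.86.

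EGR1 is a zinc finger transcription factor whose promoter is a textbook target of serum response factor, with the pair of CArG boxes shown above. Its log2 level was 6.57, 6.41 and 6.62 in LSB and 9.23, 8.46 and 9.07 in NPC-NC. It was 10.37, 8.75 and 8.47 in MS5-NC and 9.84, 11.15 and 10.43 in sox10-NC. LSB was the tightest group, and MS5-NC array 1 stood well above the other MS5-NC arrays. EGR1 rose 15.3-fold in sox10-NC (3.94 ± 0.40, adjusted p = 5.97e-07 by limma), 6.35-fold in MS5-NC (2.67 ± 0.40, adjusted p = 6.17e-05) and 5.23-fold in NPC-NC (2.39 ± 0.40, adjusted p = 2.64e-04). Without background correction the folds were 8.65, 3.92 and 3.27.

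KLF6, a Krüppel-like zinc finger factor induced by injury and growth signals, was higher in every sorted group. It had 7.27, 6.83 and 7.27 in LSB and 9.67, 7.93 and 8.42 in NPC-NC. In MS5-NC it had 9.47, 9.44 and 9.31, and in sox10-NC 9.49, 9.80 and 8.73. NPC-NC had the widest spread of these groups (SD 0.90, n = 3) and MS5-NC the narrowest (SD 0.09, n = 3). The rise was 4.86-fold in MS5-NC (2.28 ± 0.35, adjusted p = 8.30e-05 by limma), 4.65-fold in sox10-NC (2.22 ± 0.35, adjusted p = 1.05e-04) and 2.92-fold in NPC-NC (1.55 ± 0.35, adjusted p = 0.00326).

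IER2, a nuclear protein of the early growth response, and ATF3, a stress-induced factor of the ATF/CREB family, did not pass the test in any group. IER2 had 6.81, 6.91 and 6.97 in LSB, and 6.89, 6.97 and 6.96 in MS5-NC. Its arrays were spread more widely in NPC-NC, at 7.56, 7.21 and 6.36, and in sox10-NC, where array 2 had 8.06 and the others 6.92 and 6.89. The change against LSB was 0.15 ± 0.31 in NPC-NC, 0.04 ± 0.31 in MS5-NC and 0.39 ± 0.31 in sox10-NC. The upper ends of the 95% intervals were 0.80, 0.70 and 1.05, so a rise of the size seen for FOS lay outside all 3 of them.

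For ATF3, 1 of its 3 probes was detected, and it was detected on all 12 arrays, while the other 2 were detected on none. The detected probe had 6.84, 6.69 and 6.96 in LSB, 6.73, 6.64 and 7.17 in NPC-NC, 6.83, 6.79 and 7.44 in MS5-NC, and 7.12, 7.49 and 7.40 in sox10-NC. Only the sox10-NC arrays lay clear of LSB. The changes were 0.01 ± 0.24, 0.19 ± 0.24 and 0.51 ± 0.24, the last with an unadjusted p of 0.0486 and an adjusted p of 0.114 by limma.

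DUSP1 and ZFP36 act as brakes, DUSP1 by removing phosphate from MAP kinases and ZFP36 by binding AU-rich elements of short-lived messenger RNAs and speeding their decay. DUSP1 had 7.30, 7.66 and 7.86 in LSB, 9.28, 8.62 and 9.20 in NPC-NC, 9.36, 8.99 and 9.16 in MS5-NC, and 8.01, 9.27 and 9.20 in sox10-NC. The groups did not overlap LSB, although sox10-NC array 1 came close. It rose 2.69-fold in NPC-NC (1.43 ± 0.30, adjusted p = 0.00198 by limma), 2.95-fold in MS5-NC (1.56 ± 0.30, adjusted p = 6.45e-04) and 2.33-fold in sox10-NC (1.22 ± 0.30, adjusted p = 0.00484). The sox10-NC call ended just under the 2-fold limit without sox10-NC array 2 (1.00) and without background correction (0.96).

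ZFP36 was detected on 1 of 3 LSB arrays and on all 9 sorted arrays. It had 5.16, 5.29 and 5.07 in LSB, 6.01, 5.89 and 5.36 in NPC-NC, 5.68, 6.19 and 6.49 in MS5-NC, and 6.57, 6.39 and 6.17 in sox10-NC. The order of the group means ran from LSB through NPC-NC and MS5-NC to sox10-NC. ZFP36 rose 2.30-fold in sox10-NC (1.20 ± 0.25, adjusted p = 0.00122 by limma). In MS5-NC the change of 0.95 ± 0.25 had an adjusted p of 0.00633 by limma but fell short of 2-fold, and in NPC-NC it was 0.58 ± 0.25 (adjusted p = 0.0904). The sox10-NC call ended without background correction (0.50) and with an offset of 50 (0.74), and MS5-NC gained a call without MS5-NC array 1 (1.16), with median scaling (1.24) and with the values of the series matrix (1.40).

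**Figure D2:**
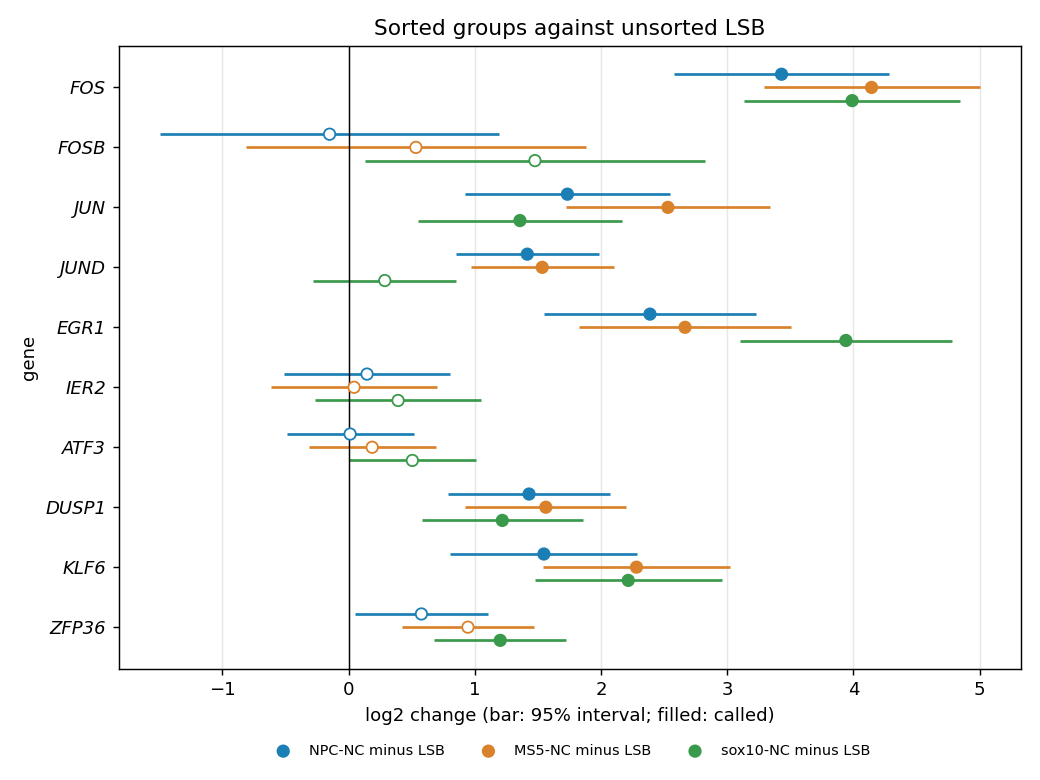
Log2 change of each gene (rows) in each sorted group against LSB, with 95% intervals as bars and filled points for called changes. FOS and EGR1 lie farthest to the right, with FOS at 3.43 to 4.14, and the IER2 and ATF3 points lie between 0.01 and 0.51.

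The sorted groups were then compared with one another, which leaves LSB out. Between NPC-NC and MS5-NC 0 of the 10 genes were called, 0 had an unadjusted p under 0.05, and 0.0798% of all genes tested were called in limma. The nearest were KLF6 (-0.73 ± 0.35, 95% interval -1.47 to 0.01) and JUN (-0.80 ± 0.39, -1.61 to 0.01), both lower in NPC-NC. For FOS the interval ran from -1.57 to 0.14, so these arrays leave room for a lower level in NPC-NC.

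EGR1 and JUND were called between sox10-NC and both other sorted groups, in opposite directions. EGR1 was 2.93-fold lower in NPC-NC than in sox10-NC (-1.55 ± 0.40, adjusted p = 0.00835 by limma) and 2.42-fold lower in MS5-NC (-1.27 ± 0.40, adjusted p = 0.0220), where MS5-NC array 1 overlapped the sox10-NC arrays. JUND was 2.19-fold higher in NPC-NC than in sox10-NC (1.13 ± 0.27, adjusted p = 0.00483) and 2.37-fold higher in MS5-NC (1.25 ± 0.27, adjusted p = 0.00185), and neither pair of groups overlapped. JUN was 2.25-fold higher in MS5-NC than in sox10-NC (1.17 ± 0.39, adjusted p = 0.0280). Among all genes tested 14.0% were called between NPC-NC and sox10-NC and 17.3% between MS5-NC and sox10-NC, against 2 and 3 of the 10 genes. Counts this small do not set the 10 genes apart from all genes tested.

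Several of these calls rested on single arrays. The JUND difference fell under 2-fold without sox10-NC array 1, to 0.84 against NPC-NC and 0.95 against MS5-NC, and to 0.99 against NPC-NC with median scaling. Between MS5-NC and sox10-NC, EGR1 was not called without MS5-NC array 2 or 3 (-1.05 and -0.91) or sox10-NC array 2 or 3 (-0.93 and -1.30), and reached -1.87 without MS5-NC array 1. The JUN difference there was not called without MS5-NC array 2 or 3 (1.13 and 0.99) or sox10-NC array 1 (0.77), nor without background correction (0.94), with array weights (0.99), with the series matrix (1.23) or without the detection filter (1.17). EGR1 was also not called there without that filter or with only the 2 groups compared (both -1.27). KLF6 gained a call between NPC-NC and sox10-NC without NPC-NC array 1 (-1.17).

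**Figure D3:**
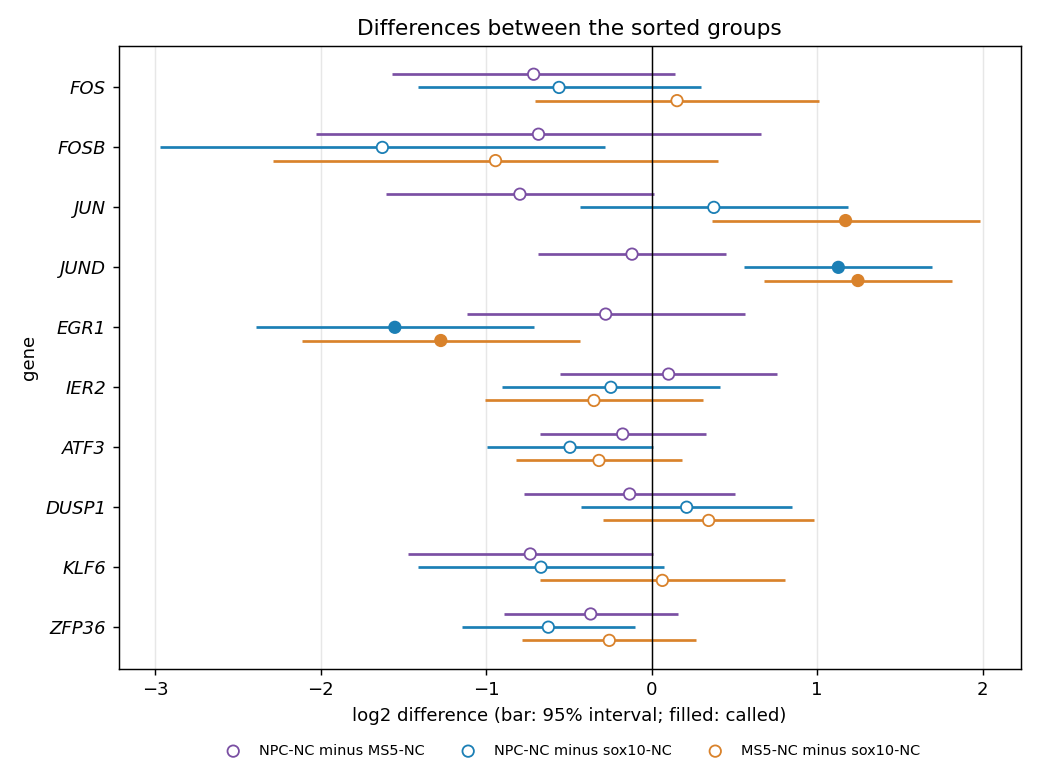
Log2 difference of each gene (rows) between pairs of sorted groups, with 95% intervals as bars and filled points for called differences. Filled points occur for JUN, JUND and EGR1, and the EGR1 differences from sox10-NC lie at -1.55 and -1.27 while those of JUND lie at 1.13 and 1.25.

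The 10 genes differed in how far replicate arrays of one group lay apart. The pooled SD within groups was 1.13 for FOSB, 0.66 for FOS, 0.65 for EGR1 and 0.61 for JUN on the log2 scale, against a median of 0.32 over all genes tested. Each of these genes ranked above 97.6% or more of the genes tested in spread. ATF3 (0.26) and ZFP36 (0.29) were under that median. The standard error over the 7 to 43 beads of a probe was 3.68% to 18.0% of its signal before background correction, with a median of 8.42%, a different scale from that of the SDs.

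Within groups, some arrays carried the highest level for most of the genes. NPC-NC array 1 was the highest of its group for 8 of the 10 genes, against 35.2% of all genes tested, and NPC-NC array 2 was the lowest for 8, against 30.6%. In sox10-NC, array 2 was the highest for 8, against 36.0% of all genes, and array 1 the lowest for 7, against 36.5%. MS5-NC array 1 was the highest for FOS, FOSB, EGR1, DUSP1 and KLF6, against 34.7% of all genes, and the lowest for JUN, IER2 and ZFP36, against 32.5%. LSB array 3 was the highest of its group for 6, against 35.5%. On MS5-NC array 1 FOSB lay 2.24 and EGR1 1.18 above the group mean on the log2 scale, while JUN lay 0.46 below it. The labels do not say what differed between replicate arrays.

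**Figure D4:**
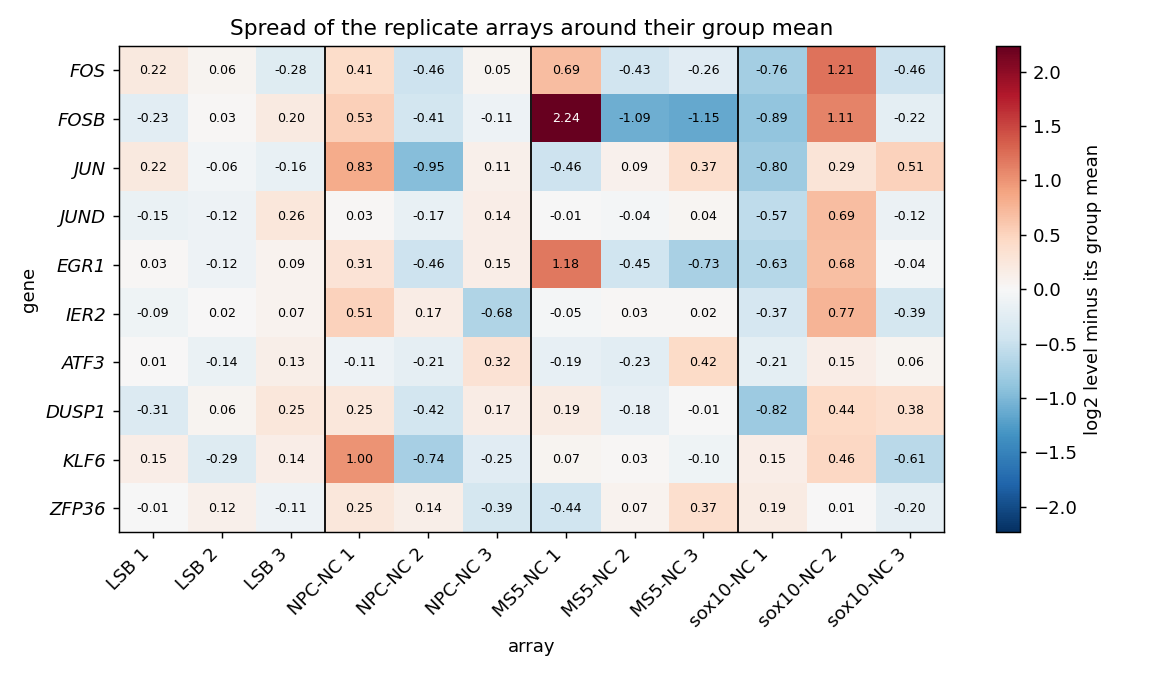
Deviation of each gene's log2 level from its group mean (colour and printed value) on each of the 12 arrays, with lines between groups. The red columns at NPC-NC array 1 and sox10-NC array 2 hold the highest level of their group for 8 genes each, and the largest deviation is FOSB on MS5-NC array 1 at 2.24.

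Of 32 other immediate early genes, 22 were tested. Higher calls numbered 2 in NPC-NC, 1 in MS5-NC and 1 in sox10-NC, and lower calls 0, 1 and 2. Among all genes tested, 10.2%, 13.0% and 9.77% were called higher and 4.84%, 7.85% and 8.64% lower. The same shares apply to the lists below. RHOB, a small GTPase of the actin cytoskeleton, was higher in each group, by 1.09 ± 0.25, 1.27 ± 0.25 and 3.55 ± 0.25. CCN1, a matricellular protein, was higher in NPC-NC (1.42 ± 0.47), SGK1, a serum- and glucocorticoid-induced kinase, was lower in MS5-NC (-1.09 ± 0.37) and sox10-NC (-1.05 ± 0.37), where 1 of 3 arrays detected it, and IER3, an early response gene linked to survival, was lower in sox10-NC (-1.36 ± 0.32). The median change of the 22 was 0.11, 0.29 and -0.09. JUNB, FOSL1, FOSL2, EGR3, EGR4, NR4A1 and NR4A3 were among the 10 not tested, as fewer than 3 arrays detected a probe of theirs.

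Among regulators of these genes, 7 of 11 factors that act on their promoters were tested. CREBBP, a histone acetyltransferase that CREB recruits, rose by 1.97 ± 0.22, 1.85 ± 0.22 and 2.01 ± 0.22 in NPC-NC, MS5-NC and sox10-NC. Its relative EP300 was called in NPC-NC alone (1.32 ± 0.23), and SRF, the serum response factor, in sox10-NC alone (1.21 ± 0.26). Mean log2 levels of EP300 were 6.67, 6.20 and 6.32 in NPC-NC, MS5-NC and sox10-NC, against 5.35 in LSB. Those of SRF were 9.26, 9.21 and 9.69, against 8.47. The list had 0 lower calls, and medians of 0.66, 0.73 and 0.84. Of 11 AP-1 relatives and EGR1 partners, 4 were tested and 1 was called, the EGR1 corepressor NAB1, lower in sox10-NC (-1.02 ± 0.24).

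Among feedback inhibitors of MAP kinase signalling, several were lower in sox10-NC, where DUSP1 was higher. Of 12, 11 were tested, and 5 were lower in sox10-NC (DUSP4, DUSP6, SPRY1, SPRY2 and SPRY4) and 0 higher, with a median of -0.89, against 8.64% of all genes called lower. SPRY1, an inhibitor of receptor tyrosine kinase signalling, had a mean log2 level of 10.55 ± 0.11 (SD, n = 3) in LSB and was below background on all sox10-NC arrays, at least 35.7-fold lower, a bound set by the detection limit of those arrays. SPRY2, which was detected on all 3 sox10-NC arrays, fell by 2.34 ± 0.31. DUSP6, which inactivates ERK, was detected on 1 of 3 sox10-NC arrays, and its fitted change of -2.97 ± 0.38 rests on levels mostly not above background there. In NPC-NC SPRY1 (1.34 ± 0.26), SPRY4 (1.40 ± 0.35) and SPRED2 (1.39 ± 0.24) were higher instead, and in MS5-NC DUSP8 alone was called (1.84 ± 0.30). DUSP8 was detected on 1 of 3 LSB arrays, so its fitted change rests on LSB levels mostly not above background.

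Proteins that bind AU-rich elements, like ZFP36, were higher for 2, 2 and 3 of 7 members and lower for 0. Among all genes tested, 10.2%, 13.0% and 9.77% were called higher in NPC-NC, MS5-NC and sox10-NC. ZFP36L1, a relative of ZFP36 with the same kind of zinc fingers, rose in all 3 groups (1.33 ± 0.23, 1.65 ± 0.23 and 2.07 ± 0.23). ELAVL1, which stabilises such transcripts, rose in NPC-NC (1.34 ± 0.28) and MS5-NC (2.02 ± 0.28). KHSRP, which promotes their decay, and TIAL1, which represses their translation, rose in sox10-NC, by 1.28 ± 0.22 and 1.28 ± 0.24.

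**Figure D5:**
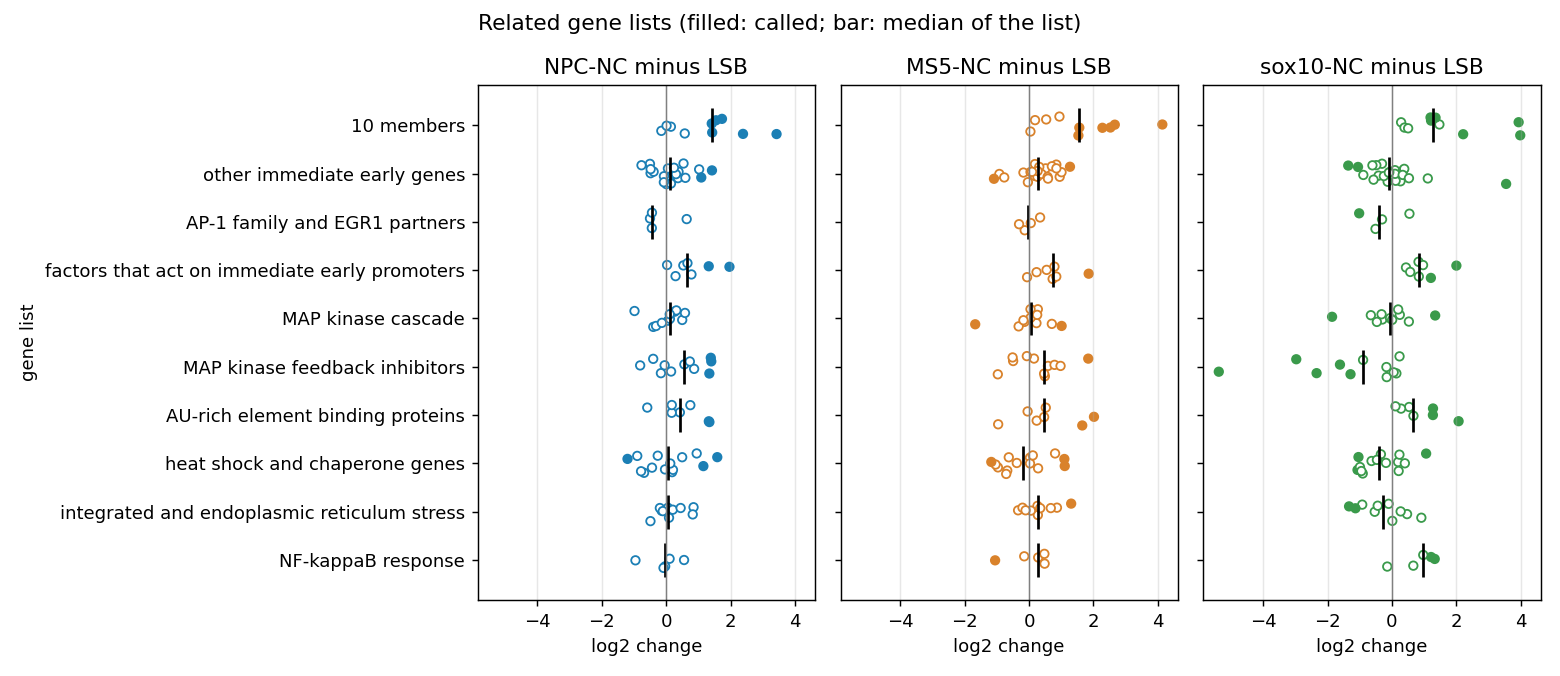
Log2 change against LSB (horizontal axis) of each tested gene in each list (rows), one panel per sorted group, with filled points for called genes and a bar at the median of the list. Members and lists were chosen with earlier results of these data known. The 10 members have medians of 1.42, 1.55 and 1.29, the 22 other immediate early genes have medians of 0.11, 0.29 and -0.09, and the MAP kinase feedback inhibitors reach down to SPRY1 at -5.38 in sox10-NC, where its fitted value depends on the offset.

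The profile of FOS over the 12 arrays was set against the genes tested, by the root mean square difference of log2 levels centred on each gene's mean. Genes with uncharacterised or family-numbered symbols, such as LOC, KIAA and FAM names, were left out of the nearest genes and the ranks. The 6 nearest genes were GADD45G (0.62), a stress-inducible growth arrest gene, ZMIZ1 (0.63), a transcriptional coactivator, ZFHX3 (0.64), a zinc finger homeobox factor, INSM1 (0.65), a zinc finger factor of neuroendocrine and neuronal progenitors, EGR1 (0.71) and MBD6 (0.73), a methyl-CpG-binding domain protein. EGR1 was therefore the only one of the 9 other members among them, with KLF6 at rank 31, JUN at 130 and DUSP1 at 193, and IER2 and ATF3 at 3122 and 3168.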

How the data were processed

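Expression was measured in 12 RNA samples on Illumina HT-12 arrays after Trizol extraction and biotin labelling of cRNA, per the labels' protocols. The submitters' processing notes name GenomeStudio, with no version. The deposited table gives for each of 47322 probes a mean bead intensity on the linear scale, per the file headers not stated to be normalised, with its detection p-value, bead count and the standard error over beads. The deposited series matrix gives processed intensities whose steps are not stated, with column medians of 7.54 to 7.58, and served as an alternative.

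Intensities were background-corrected from the detection p-values, normalised between arrays by quantiles and log2-transformed by neqc (offset 16) from limma 3.58.1 in R 4.3.3. Of 30113 probes with 1 gene in the array annotation, 30074 matched a current RefSeq gene. Each of the 11280 genes tested was represented by its probe with the highest mean, among probes detected (p under 0.01) on at least 3 arrays. A single model with a mean for each of the 4 groups was fitted to the 12 arrays (lmFit, eBayes, two-sided), with Benjamini-Hochberg adjustment over all genes in each comparison. The fit was tested on simulated data in which every gene counted as detected and the added changes were well above 2-fold. Genes near background or near the 2-fold limit were not covered. A lower bound of a fold sets the group below background at the lowest level that passes the detection threshold on each array. Samples with the same replicate number showed little pairing: 2 of 18 correlations of their deviations from the group means exceeded 0.1 (range -0.09 to 0.18). Both were between NPC-NC and sox10-NC, at 0.18 and 0.15. Whether such samples shared a batch or an induction was not tested. No chip or scan batch is given in the sources used here. The number of arrays limits the precision.

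All members are named, with up to 3 called genes per direction of each other list and the 6 genes nearest to FOS, uncharacterised symbols skipped. The members and lists were chosen with earlier results of these data known. Alternatives were no background correction, an offset of 50, median scaling, the series matrix, a detection p under 0.05, no detection filter, the mean over probes, only the 2 groups compared, a replicate block, array weights and leaving out each array.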

Additional observations from a re-analysis of the deposited data

Results flagged for a closer look

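Differences between sorted groups that passed limma's test are listed here because the groups carry the same neural crest label, although their markers differ. EGR1 differed by -1.55 for NPC-NC minus sox10-NC and by -1.27 for MS5-NC minus sox10-NC on the log2 scale. JUND differed by 1.13 and 1.25 in the same comparisons, and JUN by 1.17 for MS5-NC minus sox10-NC. Among all genes tested, 14.0% were called for NPC-NC minus sox10-NC and 17.3% for MS5-NC minus sox10-NC, so these few calls do not set the members apart. The JUND calls, and the EGR1 and JUN calls for MS5-NC minus sox10-NC, were lost when certain single arrays were left out. Induction, sort marker, day of collection and the sox10::GFP reporter line of sox10-NC differ between these groups and cannot be told apart. Cell type markers differ as well, and their part was not tested. All 8 neural crest markers were called lower in NPC-NC and in MS5-NC than in sox10-NC. Of 6 neuroepithelial markers, 5 were called higher in each, and of 7 neuronal markers 4 and 6.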

How the results depend on the processing

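The number of the 10 genes called against LSB was 6 in NPC-NC under all 10 other settings and with each of the 12 arrays left out. In MS5-NC it was 6 or 7 throughout, and in sox10-NC 3 without background correction (EGR1, FOS and KLF6) and 5 to 7 with an array left out. Between NPC-NC and MS5-NC it was 0 throughout. Between NPC-NC and sox10-NC it was 1 with median scaling (EGR1) and 2 to 3 with an array left out, and between MS5-NC and sox10-NC 1 with no detection filter (JUND) and 1 to 4 with an array left out. Among 1320 values of single genes under these alternatives, 23 lost a call, 13 gained one, and 0 called values changed sign. Another 28 changed sign without a call under either setting. With the replicate block the counts of called genes among the 10 were 6, 6 and 6 against LSB and 0, 2 and 3 between sorted groups, and it changed no call. Of 12 arrays, 4 correlated best with arrays of their own number.

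Over all genes, calls without background correction numbered 616 in NPC-NC, 966 in MS5-NC and 820 in sox10-NC against LSB, in place of 1696, 2358 and 2077, and with an offset of 50 they numbered 950, 1449 and 1260. Against sox10-NC they were 634 and 823 without background correction and 947 and 1200 with an offset of 50, for NPC-NC and MS5-NC, in place of 1583 and 1955. Between NPC-NC and MS5-NC 9 genes were called, 3 without background correction, 4 with no filter or only those 2 groups, 22 with array weights and 3 to 33 with an array left out. Changes of genes near background, such as FOSB and ZFP36, are limited by the detection of their probes. The FOS folds also depend on LSB levels near the detection limit.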

Other observations

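Of 14 heat shock and chaperone genes, 2 were higher and 1 lower in NPC-NC, 2 and 1 in MS5-NC, and 1 and 2 in sox10-NC, with medians of 0.05, -0.18 and -0.40. Among all genes tested, 10.2%, 13.0% and 9.77% were called higher and 4.84%, 7.85% and 8.64% lower. HSPA1B, an inducible HSP70 gene, was higher in NPC-NC (1.59 ± 0.33) and MS5-NC (1.10 ± 0.33), as was the small heat shock protein HSPB1 (1.16 ± 0.22 and 1.11 ± 0.22). HSPA4 was lower in NPC-NC (-1.20 ± 0.28). HSPE1, a mitochondrial co-chaperone, was lower in MS5-NC (-1.17 ± 0.25) and sox10-NC (-1.04 ± 0.25), where HSPA8 was also lower (-1.07 ± 0.31) and BAG3, a co-chaperone, higher (1.07 ± 0.23). HSPA1B shares nearly all of its sequence with HSPA1A, so the probe may read both. HSPA1A was also tested, with its own probe, and was not called in any sorted group.

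Of 10 integrated and endoplasmic reticulum stress genes tested, 1 was higher in MS5-NC, PPP1R15A (1.31 ± 0.22), which directs dephosphorylation of the initiation factor eIF2, and 2 were lower in sox10-NC, ASNS (-1.33 ± 0.30), which makes asparagine, and DNAJB9 (-1.13 ± 0.21). In NPC-NC 0 were called, and 0 of the 11 MAP kinase cascade genes tested. MAP2K6, a kinase upstream of p38, was lower in MS5-NC (-1.67 ± 0.37) and sox10-NC (-1.86 ± 0.37). MAPK3, which encodes ERK1, was higher in MS5-NC (1.01 ± 0.24) and MAP2K2, which activates ERK, in sox10-NC (1.35 ± 0.26). Of 5 NF-kappaB response genes tested, NFKB1 (1.33 ± 0.23) and its inhibitor NFKBIA (1.22 ± 0.22) were higher in sox10-NC, and CCL2, a chemokine, was lower in MS5-NC (-1.05 ± 0.38).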
